A study of Mus musculus and Rattus norvegicus with 79 samples.

Results

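Krüppel-like factors (Klf) are transcription factors that bind CACC and GC boxes in promoters through zinc fingers at their carboxyl end. The values here are those of 9 members, Klf3, Klf6, Klf9, Klf10, Klf11, Klf12, Klf13, Klf15 and Klf16, in mouse liver. The members were taken by name from the transcript rows of the mouse RNA sequencing tables, with the row of the highest total count standing for a gene, and they are 9 of 24790 genes matched there. They were chosen with earlier results of these data known, so their counts beside the shares of all genes are descriptions. They have 12 of 40458 rows, 3 of them for Klf10 and 2 for Klf15. All 9 passed the filter on low counts in both mouse experiments.

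As background, members differ mainly in the partners they bring to DNA. Klf9, Klf10, Klf11, Klf13 and Klf16 can recruit the corepressor Sin3a, Klf3 and Klf12 recruit the corepressor CtBP, and Klf6 and Klf15 act largely as activators. In liver, Klf15 is known for its control of amino acid breakdown and gluconeogenesis, and Klf9, Klf13 and Klf15 are known as genes that respond to glucocorticoids in several tissues. The glucocorticoid receptor (GR, product of Nr3c1) is the hormone-activated transcription factor that carries that response.

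The study asked how feeding and GR shape liver gene expression at set Zeitgeber times (ZT, hours since lights on) in mice kept in 12 h light and 12 h dark and trained to eat at night. In the first experiment, untreated C57BL/6 mice gave fed livers at 4 night hours (ZT13, ZT14, ZT18, ZT22) and unfed livers at the same hours and at ZT10, with 3 polyA libraries in each of 9 groups. In the second, Nr3c1fl/fl mice, which all carry the floxed Nr3c1 allele, had received AAV-tbg-CRE or, as control, AAV-tbg-GFP 10 days earlier. Mice had not eaten at the first pair of hours sampled, ZT10 and ZT12, and had food at the 4 night hours, with 3 libraries depleted of ribosomal RNA in each of 12 groups. CRE excises the floxed DNA and tbg is a promoter active in hepatocytes, so other liver cells keep the gene. The sources used here do not give the ages of the mice or the hours since food was given or taken away, and nothing in the labels says that replicates are separate animals, so p-values measure the spread between these libraries. GR binding was mapped by chromatin immunoprecipitation in liver at ZT10, in samples titled GR, input, GR_WT and GR_LGRKO. The last pair came from mice injected 10 days earlier, and no injection is listed for the others. The peak lists used below came with GR (concordant), input (against input) and GR_LGRKO (against CRE chromatin).

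Total counts per library were 23.87 to 91.77 M in C57BL/6 livers and 34.64 to 78.76 M in Nr3c1fl/fl livers. A single ribosomal RNA row held over 20% of the counts in 6 Nr3c1fl/fl libraries, namely replicate 1 of CRE at ZT10, all GFP libraries at ZT10 and replicates 1 and 2 of GFP at ZT12. Nr3c1 itself lay at 102 to 201 CPM (a gene's count scaled to a common library total) in 18 CRE libraries, against 147 to 323 CPM in 18 GFP libraries, and at each hour all CRE libraries were below all GFP libraries. Its mean change over 6 hours was -0.63 ± 0.06 (log2 fold change ± SE, adjusted p = 1.85e-09). The sources used here do not give the part of Nr3c1 that is excised, and other liver cells keep the gene. This change is thus not a measure of GR loss in hepatocytes. Summed hepatocyte markers reached 40800 to 60300 CPM in CRE livers and 46000 to 70200 CPM in GFP livers, and 4 of 8 tested hepatocyte markers were lower in CRE livers on average. In C57BL/6 livers, 8 of 9 endothelial markers were lower and 4 of 8 stellate cell markers higher in fed livers on average, with endothelial sums of 259 to 356 CPM fed and 309 to 421 CPM unfed at those hours. Replicate 1 of fed ZT14 stood apart with a bile duct marker sum of 105 CPM, and replicate 3 of unfed ZT18 with a pancreas marker sum of 296 CPM. Summed fat cell markers, of which up to 4 of 6 were listed at 0 in a library, were at 1260 to 3460 CPM fed and 291 to 1760 CPM unfed at those hours, and at 1330 to 2660 CPM in CRE livers and 412 to 1430 CPM in GFP livers. Only 2 of these 6 passed the filter in C57BL/6 livers and 3 of 6 in Nr3c1fl/fl livers, so the sums rest on few genes. Which cells those reads came from was not tested, and the sums are no measure of fat tissue. The single fat cell markers did not move together. On average 1 of 2 tested was higher and 1 lower in fed livers. Of 3 tested in Nr3c1fl/fl livers, 1 was higher and 1 lower in CRE livers, with a median change of -0.39. The part of these marker shifts in the Klf values was not tested. In bulk tissue, fewer cells of a type and less RNA per cell cannot be told apart.

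Members differed widely in read count, but transcript lengths were not used, so levels are compared within a gene. Klf15 had 182 to 426 CPM in C57BL/6 livers (median 285 CPM) and 103 to 341 CPM in Nr3c1fl/fl livers (median 154 CPM). Klf9 and Klf13 had medians of 115 and 137 CPM in C57BL/6 livers. Klf3, Klf10 and Klf12 had medians of 37.8, 19.6 and 38.5 CPM there, and Klf6, Klf11 and Klf16 medians of 7.28, 9.07 and 5.1 CPM. On GRCm38.p6 the genes lie at chr5:64803521-64832901 (Klf3), chr13:5861489-5870393 (Klf6), chr19:23141226-23168129 (Klf9), chr15:38291464-38300711 (Klf10), chr12:24651371-24662782 (Klf11), chr14:99866181-100285891 (Klf12), chr7:63886351-63938915 (Klf13), chr6:90461043-90491803 (Klf15) and chr10:80567121-80577296 (Klf16). The lowest count of any member in any library was 34, for Klf16, so counting error is larger for the last 3.

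Among the 7 members with a promoter in the RefSeq table, the promoters of the 4 with the largest called changes between fed and unfed or CRE and GFP livers are shown with the E-box CACGTG in capitals. That palindrome is the site of the circadian clock factors and of Myc-type factors. Each sequence runs 5' to 3' on the strand of the gene, from 250 bases before the RefSeq start site through its first 3 bases (assembly GRCm38.p6). Klf9 lies on chr19:23140976-23141228 (+), Klf11 on chr12:24651121-24651373 (+), Klf13 on chr7:63938913-63939165 (-) and Klf15 on chr6:90462326-90462578 (+).
Klf9: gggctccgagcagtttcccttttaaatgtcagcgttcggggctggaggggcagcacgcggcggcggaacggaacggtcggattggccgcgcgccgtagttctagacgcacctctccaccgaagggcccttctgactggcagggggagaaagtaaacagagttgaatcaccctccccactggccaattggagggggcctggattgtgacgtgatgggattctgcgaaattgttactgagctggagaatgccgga
Klf11: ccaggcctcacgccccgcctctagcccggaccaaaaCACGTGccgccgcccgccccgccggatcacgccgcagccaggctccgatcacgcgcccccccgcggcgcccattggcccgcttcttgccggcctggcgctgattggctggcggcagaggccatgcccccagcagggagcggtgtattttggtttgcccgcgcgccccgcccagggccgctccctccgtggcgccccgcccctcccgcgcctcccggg
Klf13: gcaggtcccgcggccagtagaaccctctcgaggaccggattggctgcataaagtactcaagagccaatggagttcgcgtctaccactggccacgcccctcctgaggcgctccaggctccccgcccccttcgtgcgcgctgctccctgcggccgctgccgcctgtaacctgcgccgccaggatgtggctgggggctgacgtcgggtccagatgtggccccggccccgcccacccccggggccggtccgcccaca
Klf15: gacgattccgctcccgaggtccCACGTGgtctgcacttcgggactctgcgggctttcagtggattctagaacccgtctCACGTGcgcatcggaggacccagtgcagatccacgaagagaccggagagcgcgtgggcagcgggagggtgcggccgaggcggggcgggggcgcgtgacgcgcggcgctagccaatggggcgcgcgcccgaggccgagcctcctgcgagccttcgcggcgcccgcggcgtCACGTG

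The Klf15 promoter held 3 E-boxes, starting at positions -228, -172 and -3 from the start site, the Klf11 promoter held 1 at -214, and neither the Klf9 nor the Klf13 window held one. Among the other members with a promoter in the RefSeq table, Klf6 held 1 E-box at -43 and Klf3 and Klf12 none. At least one E-box stood in 7.15% of 32851 promoters of 300 bases. The GC box GGGCGG, searched on both strands, was found 6 times in Klf3, 4 times in Klf11, 3 times in Klf13 and once each in Klf6 and Klf15, and 35.7% of promoters held it. The CACC box CCACCC was found 3 times in Klf3 and once in Klf13, where it starts at -23 and overlaps the GC box that starts at -27, against 31.5% of promoters with at least one. Neither the palindromic GR element, searched by its consensus letters, nor its single arm AGAACA occurred in these 7 windows, and they stood in 0.00913% and 19.0% of promoters. A match or its lack is a description of these letters only, and Klf10 and Klf16 had no promoter in the table. Only 1 start site per gene was searched, which for Klf12 and Klf15 lies inside the gene interval.

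Fed and unfed livers of the same hour were compared to find which members follow food. Averaged over ZT13, ZT14, ZT18 and ZT22, 7 of 9 members fell in fed livers and none rose, beside 17.9% of all 14744 tested genes called lower, 17.5% higher and 35.4% called in either direction. The median change of the 9 members was -0.43, against 0.01 for all genes tested. Klf6 (-0.18) and Klf10 (-0.20) did not pass. Klf11 and Klf9 fell at all 4 hours, Klf3 passed at ZT13 and ZT14 and Klf13 at ZT18 and ZT22, but the test of a food effect that differs among hours did not pass for Klf3 (adjusted p = 0.347) or Klf13 (adjusted p = 0.163).

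Klf11, a Sin3-recruiting repressor first described as a gene induced by TGF-beta, had the largest change of the 9 members. It had 4.74, 3.98 and 3.51 CPM in fed livers at ZT13, against 9.07, 7.7 and 12.3 CPM in unfed livers. At ZT14 it had 3.63, 6.56 and 5.04 CPM fed and 17, 15.2 and 11.5 CPM unfed, and at ZT22 6.72, 8.7 and 7.87 CPM fed and 20.7, 22 and 15.3 CPM unfed. Every fed library lay below every unfed library of its hour, including ZT18 with 8.27, 7.13 and 7.08 CPM fed and 19.9, 18.1 and 19.4 CPM unfed. The changes were -1.25 ± 0.20, -1.51 ± 0.20, -1.35 ± 0.19 and -1.32 ± 0.19 at ZT13, ZT14, ZT18 and ZT22 (adjusted p = 0.00139, 4.2e-05, 8.01e-06 and 1.38e-05). On average Klf11 fell by 1.36 ± 0.10 (adjusted p = 7.31e-11), and a change of that effect with the hour did not pass the test (adjusted p = 0.893). Its level went up through the night in both feeding states, with means of 4.07 ± 0.62, 5.08 ± 1.47, 7.49 ± 0.68 and 7.77 ± 0.99 CPM fed (SD, n = 3 each).

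Klf9, a Sin3-recruiting repressor induced by glucocorticoids and thyroid hormone, had 115, 94.7 and 109 CPM in fed livers at ZT13, against 161, 162 and 161 CPM in unfed livers. At ZT18 it had 57.3, 70.6 and 62.5 CPM fed and 148, 112 and 127 CPM unfed. Fed libraries were below all unfed libraries at each of the 4 hours. The change was -0.60 ± 0.14 at ZT13 (adjusted p = 0.0279), -0.82 ± 0.14 at ZT14 (adjusted p = 0.000669), -1.02 ± 0.14 at ZT18 (adjusted p = 6.39e-06) and -0.69 ± 0.14 at ZT22 (adjusted p = 0.000726). The ZT13 call was lost, at adjusted p = 0.0739 to 0.194, without replicate 2 or 3 of the fed or of the unfed group. On average Klf9 fell by 0.78 ± 0.07 (adjusted p = 2.94e-09).

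**Figure D1:**
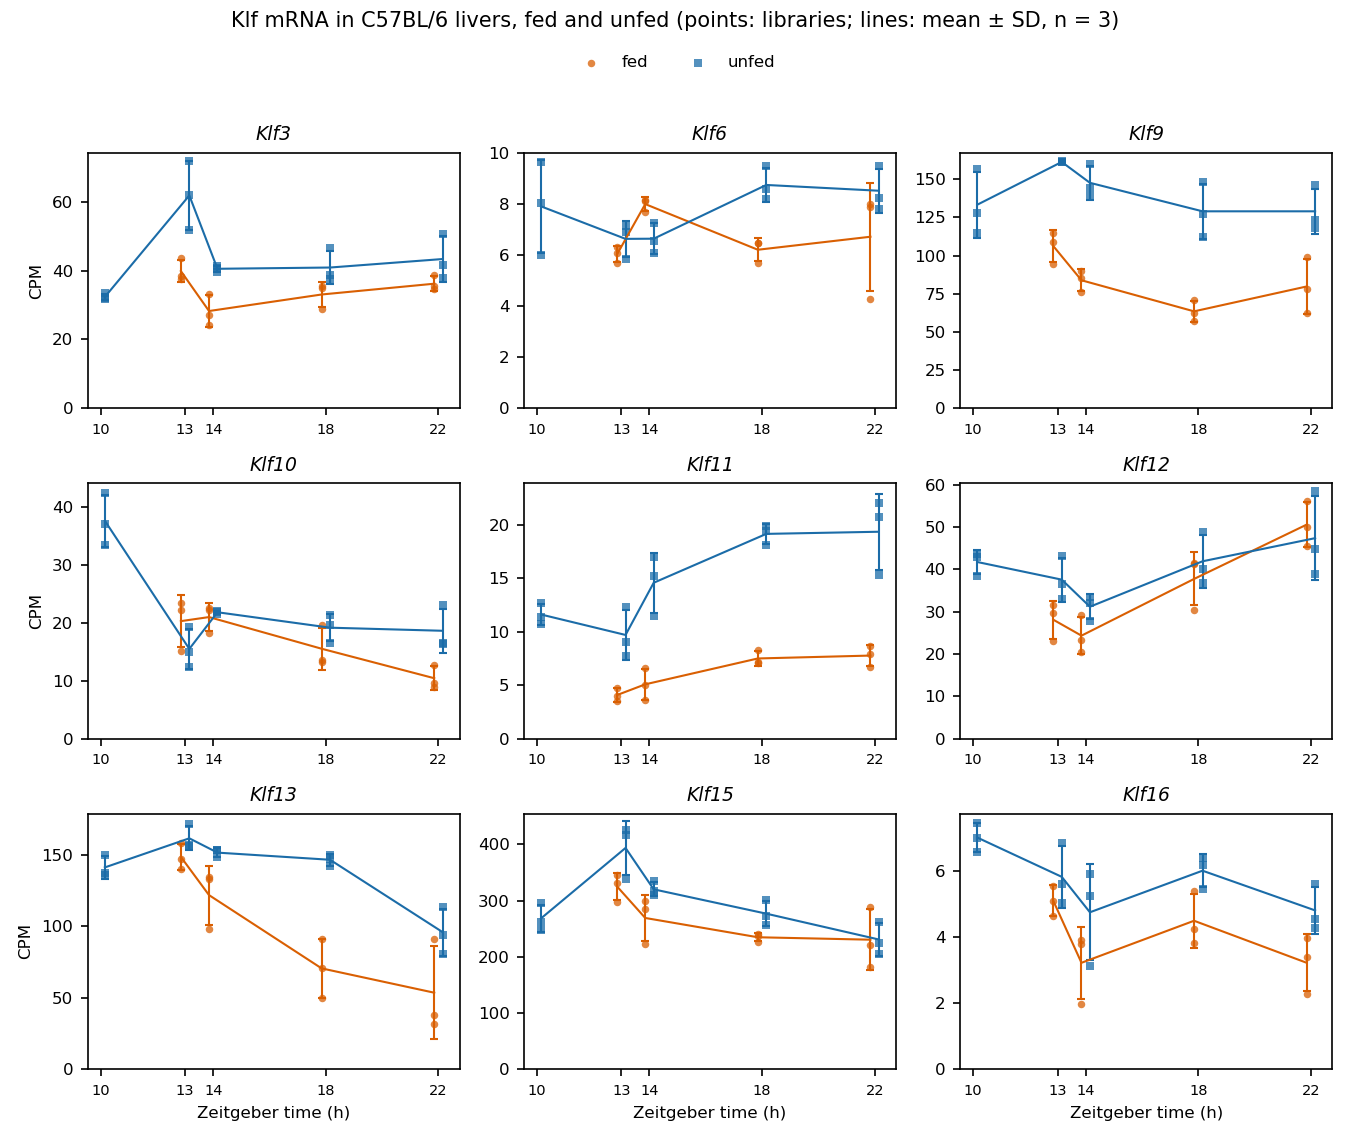
CPM of each member by Zeitgeber time in fed (orange circles, left) and unfed (blue squares, right) C57BL/6 livers, each point a library, lines through group means with SD bars (n = 3). Klf11 and Klf9 points of fed livers lie below all unfed points at each hour, while Klf13 points do not overlap at ZT14 and ZT18, nor Klf10 points at ZT22.

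Klf3, a CtBP-recruiting repressor also called basic Krüppel-like factor, passed the test at the first 2 night hours. It had 43.5, 38.4 and 37.6 CPM fed and 61.9, 71.7 and 51.8 CPM unfed at ZT13, a change of -0.63 ± 0.12 (adjusted p = 0.00747). At ZT14 it had 24.3, 33.3 and 27.1 CPM fed and 41.2, 40.7 and 39.6 CPM unfed, a change of -0.52 ± 0.13 (adjusted p = 0.0147). The groups did not overlap at either hour. The ZT13 call was lost without replicate 2 of the unfed group or replicate 2 or 3 of the fed group (adjusted p = 0.0508 to 0.0761) and with the 2 groups fitted alone (-0.62, adjusted p = 0.0659), and the ZT14 call without replicate 1 or 2 unfed or replicate 1 or 3 fed (adjusted p = 0.0624 to 0.119). Without the 2 libraries rich in markers of other tissues the ZT14 call was lost as well (adjusted p = 0.128). At ZT18, again without overlap, and at ZT22 Klf3 changed by -0.31 and -0.26 and did not pass (adjusted p = 0.0699 and 0.149), and the average change was -0.43 ± 0.06 (adjusted p = 6.26e-06).

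Klf13, a Sin3-recruiting factor close in sequence to Klf9, had 147, 140 and 158 CPM fed and 157, 156 and 171 CPM unfed at ZT13, which overlapped. At ZT14 it had 97.9, 134 and 133 CPM fed and 153, 153 and 148 CPM unfed, which did not overlap, and the change of -0.31 ± 0.24 did not pass (adjusted p = 0.512). At ZT18 it had 49.8, 70.4 and 91 CPM fed and 150, 142 and 147 CPM unfed, a change of -1.05 ± 0.24 (adjusted p = 0.00203) with no overlap. At ZT22 it had 38.1, 90.9 and 31.2 CPM fed and 80.2, 94 and 113 CPM unfed, and replicate 2 of the fed group lay within the unfed range. The ZT22 change was -0.84 ± 0.24 (adjusted p = 0.0143). It was -1.47 without that replicate 2, which still passed, and it did not pass without replicate 1 or 3 of the fed group or replicate 3 of the unfed group (-0.66, -0.57 and -0.70, adjusted p = 0.0734 to 0.0986) or with the 2 groups fitted alone (-0.84, adjusted p = 0.134). The average change was -0.58 ± 0.12 (adjusted p = 0.000436).

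Klf16, Klf12 and Klf15 passed in the average alone. Klf16, a Sin3-recruiting repressor, changed by -0.43 ± 0.12 on average (adjusted p = 0.00542), with means of 4.01 CPM fed and 5.35 CPM unfed. The average change of Klf12, a CtBP-recruiting repressor of the Tfap2a gene, was -0.21 ± 0.08 (adjusted p = 0.0425), with means of 35.2 CPM fed and 39.5 CPM unfed. Klf15 averaged 265 CPM fed and 305 CPM unfed, a change of -0.19 ± 0.07 (adjusted p = 0.0285). The calls of Klf12 and Klf15 lay close to the threshold. With all libraries kept, the Klf12 call was lost with RLE size factors (adjusted p = 0.0527) and with another transcript row for the genes that have several (adjusted p = 0.0552). Leaving out any of 12 single libraries lost the Klf12 call (adjusted p = 0.0509 to 0.0968) and any of 8 lost the Klf15 call (adjusted p = 0.05 to 0.0616). For Klf12 these were replicates 2 and 3 unfed and 1 fed at ZT13, 2 and 3 unfed and 1 and 3 fed at ZT14, 2 unfed and 1 fed at ZT18, and 1 unfed and 1 and 3 fed at ZT22. For Klf15 they were replicates 1 and 2 unfed and 2 fed at ZT13, 3 unfed and 1 fed at ZT14, 3 unfed at ZT18, and 3 unfed and 3 fed at ZT22. Without the 2 libraries rich in markers of other tissues, Klf12 changed by -0.20 (adjusted p = 0.064) and Klf15 by -0.14 (adjusted p = 0.108).

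Hour by hour, 3 members were lower in fed livers at ZT13 (Klf3, Klf9 and Klf11, beside 0.631% of all genes lower and 1.1% called either way) and the same 3 at ZT14 (3.38% and 5.64%). Klf6, Klf9, Klf11 and Klf13 were lower at ZT18 (13.1% and 26.4%), and Klf9, Klf10, Klf11 and Klf13 at ZT22 (9.77% and 20.2%). None was called higher at any hour, beside 0.468%, 2.26%, 13.3% and 10.5% of all genes at the 4 hours. Klf6, an activator that injured tissue induces early, had 6.46, 5.7 and 6.48 CPM fed and 9.49, 8.58 and 8.19 CPM unfed at ZT18. That change of -0.49 ± 0.18 lay close to the threshold (adjusted p = 0.0452), and leaving out any of the 6 libraries of the hour lost it (adjusted p = 0.057 to 0.13), as did having no filter on low counts (adjusted p = 0.0534) or leaving out the 2 libraries rich in markers of other tissues (adjusted p = 0.0626). At ZT14 all Klf6 values fed (8.14, 8.18 and 7.69 CPM) were above all unfed ones (6.57, 6.09 and 7.28 CPM), which did not pass (adjusted p = 0.472).

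Klf10, the TGF-beta inducible early gene, was the single member called for a food effect that differed among the hours (adjusted p = 0.023). That count, 1 of 9 members, is near the 8.1% of all genes called. It had 23.5, 22.3 and 15.1 CPM fed and 15, 12.3 and 19.2 CPM unfed at ZT13, which overlapped, and the change of 0.39 ± 0.19 did not pass (adjusted p = 0.378). At ZT22 it had 12.8, 8.94 and 9.58 CPM fed and 16.5, 23 and 16.4 CPM unfed, a change of -0.83 ± 0.19 (adjusted p = 0.00271) with no overlap. Between them the change was -0.06 at ZT14 and -0.30 at ZT18, and the average of -0.20 ± 0.09 did not pass (adjusted p = 0.102), though it did without replicate 3 of fed ZT18 or replicate 1 of fed ZT22 (-0.25 and -0.24, adjusted p = 0.0328 and 0.0461). The difference among hours was lost, at adjusted p = 0.0515 to 0.0574, without replicate 2 unfed or replicate 1 or 2 fed at ZT13, or replicate 2 unfed or replicate 2 or 3 fed at ZT22. A difference among hours appeared for Klf13 without replicate 2 of fed ZT22 (adjusted p = 0.000847, against 0.163 with all libraries).

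**Figure D2:**
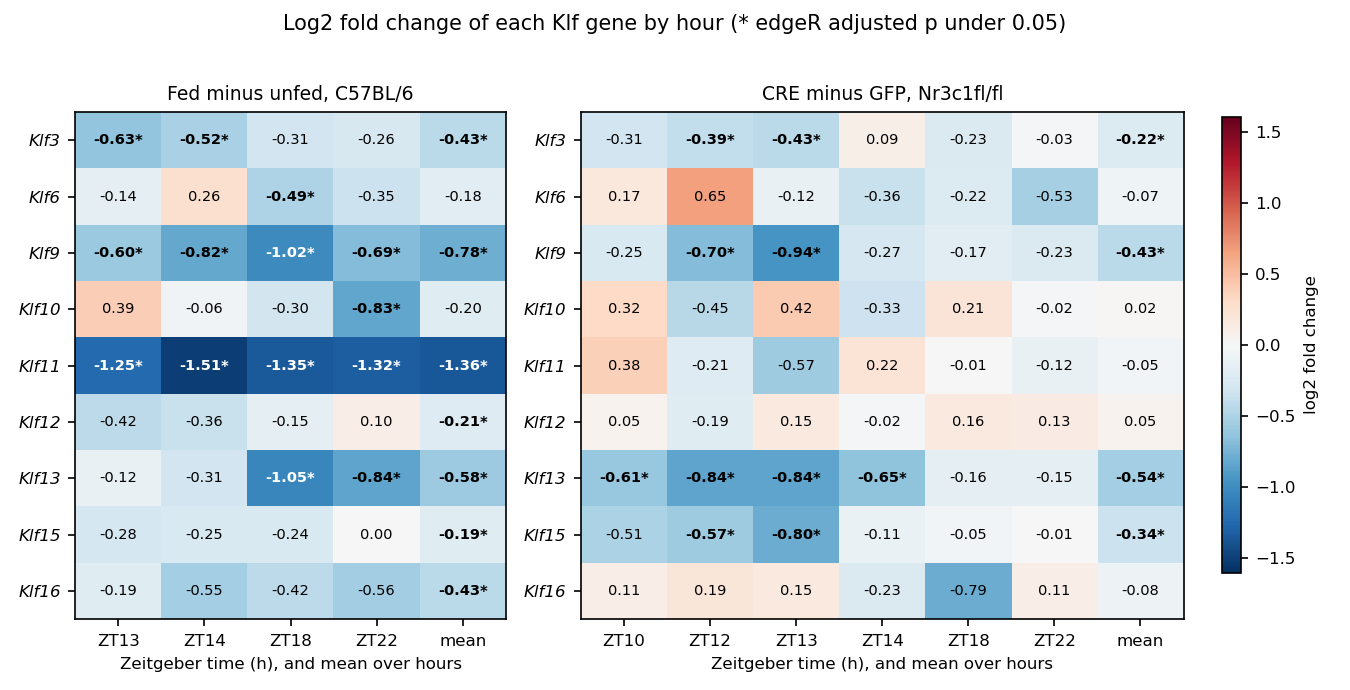
Log2 fold change of each member by hour and on average, fed minus unfed (left) and CRE minus GFP (right), blue lower and red higher, with asterisks where edgeR's adjusted p was under 0.05. Klf11 stands at -1.25 to -1.51 for food and near 0 in the CRE average, while Klf13 has asterisks for CRE from ZT10 to ZT14 and for food at ZT18 and ZT22.

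Levels were also compared across hours within a feeding state, where the hour and the time since the last meal cannot be told apart. In unfed C57BL/6 livers from ZT10 to ZT22, 5 of 9 changed with time (Klf3, Klf10, Klf11, Klf12 and Klf15), beside 42.5% of all genes, and Klf6, Klf9, Klf13 and Klf16 did not pass (adjusted p = 0.0903 to 0.187). Unfed Klf10 averaged 37.6 ± 4.49 CPM at ZT10, then 15.5 ± 3.51 CPM at ZT13 (SD, n = 3 each), and at 21.9, 19.2 and 18.6 CPM at ZT14, ZT18 and ZT22 (adjusted p = 2.61e-05). Klf3 was at 32.4 ± 0.92 CPM at ZT10, 61.8 ± 9.93 CPM at ZT13 and 40.5 to 43.3 CPM thereafter (adjusted p = 2.61e-05), and Klf15 was at 268 ± 24.2 CPM at ZT10, 394 ± 47.3 CPM at ZT13 and 230 ± 28.9 CPM at ZT22 (adjusted p = 0.000542). The Klf12 call (adjusted p = 0.0334) was lost without any one unfed library of ZT14 or replicate 1 of unfed ZT22 (adjusted p = 0.062 to 0.151). Klf9 had 134, 161, 148, 129 and 129 CPM over these 5 unfed hours, and its change with time did not pass (adjusted p = 0.16).

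In fed C57BL/6 livers from ZT13 to ZT22, 7 of 9 changed with time, all but Klf6 and Klf16, beside 37.2% of all genes. Klf13 stood at 148 ± 8.96, 122 ± 20.6, 70.4 ± 20.6 and 53.4 ± 32.6 CPM over these hours (adjusted p = 8.32e-05), and the last pair differed by less than its spread. Klf9 stood at 106 ± 10.6, 83.8 ± 7.24, 63.5 ± 6.7 and 79.8 ± 18.2 CPM (adjusted p = 0.00127). Klf12 went the other way late in the night, with 28.1 ± 4.44 CPM at ZT13 and 50.6 ± 5.28 CPM at ZT22 (adjusted p = 3.43e-05). The Klf3 call (adjusted p = 0.0168) was lost without replicate 1 of fed ZT13 or replicate 1 or 3 of fed ZT14 (adjusted p = 0.0586 to 0.0849) or without the 2 libraries rich in markers of other tissues (adjusted p = 0.0928), and the Klf15 call (adjusted p = 0.0133) without replicate 3 of fed ZT13 (adjusted p = 0.0653). Klf16 (adjusted p = 0.0542) was called by DESeq2 (adjusted p = 0.0209) and with another transcript row for the genes that have several (adjusted p = 0.0482). It was also called without replicate 1 or 3 of fed ZT14, 2 of fed ZT18 or 2 of fed ZT22 (adjusted p = 0.0323 to 0.049), and one for Klf6 (adjusted p = 0.227) without replicate 1 of fed ZT22 (adjusted p = 0.0458).

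CRE and GFP livers were compared to find which members follow hepatocyte GR. Averaged over 6 hours, 4 of 9 members were lower in CRE livers (Klf3, Klf9, Klf13 and Klf15) and none was higher, beside 6.64% of all 15712 tested genes called lower, 7.92% higher and 14.6% called either way. The median change of the 9 members was -0.08, against 0.00 for all genes. These 4 calls held under every alternative tried. The alternative without the 6 libraries rich in ribosomal RNA leaves no GFP library at ZT10, so it averages ZT12 to ZT22 only. Klf11, the member that food moved most, changed by -0.05 ± 0.08 (adjusted p = 0.741) on average.

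Klf13 had the largest average change of the 9 members, while at ZT13 the change of Klf9 was larger. Klf13 had 123, 159 and 145 CPM in CRE livers and 212, 231 and 210 CPM in GFP livers at ZT10, before the night. At ZT12 it had 142, 140 and 132 CPM in CRE livers and 231, 267 and 242 CPM in GFP livers, and at ZT13 135, 130 and 148 CPM in CRE livers and 253, 290 and 194 CPM in GFP livers. No CRE library reached any GFP library of its hour through ZT14, where the values were 110, 119 and 106 CPM in CRE livers and 174, 203 and 152 CPM in GFP livers. The changes were -0.61 ± 0.13 at ZT10 (adjusted p = 0.0179), -0.84 ± 0.13 at ZT12 (adjusted p = 0.000139), -0.84 ± 0.13 at ZT13 (adjusted p = 0.000105) and -0.65 ± 0.13 at ZT14 (adjusted p = 0.00593). The ZT10 call was lost without replicate 1 or 2 of GFP or replicate 1 of CRE (adjusted p = 0.0543 to 0.117), and the ZT14 call without replicate 3 of CRE (adjusted p = 0.0589). At ZT18 and ZT22 the groups overlapped and the changes were -0.16 and -0.15, with 64.7 ± 1.98 CPM in CRE livers and 71.8 ± 8.66 CPM in GFP livers at ZT22. The average change was -0.54 ± 0.05 (adjusted p = 1.28e-08).

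Klf9 had 98.7, 109 and 92.4 CPM in CRE livers and 151, 168 and 170 CPM in GFP livers at ZT12, and 83.2, 64.5 and 65.7 CPM in CRE livers and 166, 131 and 111 CPM in GFP livers at ZT13. The groups did not overlap at these hours, with changes of -0.70 ± 0.15 (adjusted p = 0.00471) and -0.94 ± 0.15 (adjusted p = 0.000133). At ZT10 it had 115, 155 and 112 CPM in CRE livers and 165, 140 and 148 CPM in GFP livers, which overlapped. At ZT22 its 67.8, 69.2 and 72.8 CPM in CRE livers again lay below the 79.4, 84.3 and 82.1 CPM in GFP livers. The change was -0.17 to -0.27 at ZT10 and from ZT14 on, none of which passed, and the average was -0.43 ± 0.06 (adjusted p = 7.84e-06).

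Klf15, the activator of amino acid breakdown and gluconeogenesis, had 186, 163 and 187 CPM in CRE livers and 279, 272 and 247 CPM in GFP livers at ZT12, a change of -0.57 ± 0.16 (adjusted p = 0.0375). At ZT13 it had 171, 120 and 178 CPM in CRE livers and 341, 282 and 192 CPM in GFP livers, a change of -0.80 ± 0.16 (adjusted p = 0.00195). All CRE values lay below all GFP values at these hours and at ZT10, where 140, 136 and 155 CPM stood against 219, 215 and 179 CPM and the change of -0.51 ± 0.16 did not pass (adjusted p = 0.169). The ZT12 call was lost without any one CRE library or without replicate 1 or 2 of GFP (adjusted p = 0.0748 to 0.174). From ZT14 to ZT22 the change was -0.11 to -0.01, and the average was -0.34 ± 0.07 (adjusted p = 0.000387).

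Klf3 had 68.5, 63.3 and 68.7 CPM in CRE livers and 92.3, 87 and 83.5 CPM in GFP livers at ZT12 (-0.39 ± 0.11, adjusted p = 0.0352), with no overlap. At ZT13 it had 65, 68 and 71.4 CPM in CRE livers and 108, 95.8 and 71.5 CPM in GFP livers (-0.43 ± 0.11, adjusted p = 0.0132), and the third GFP library nearly met the CRE range. The ZT12 call was lost without any CRE library or GFP replicate 1 or 2 (adjusted p = 0.074 to 0.16) or with no filter on low counts (adjusted p = 0.0552), and the ZT13 call without replicate 1 or 2 of GFP or 1 of CRE (adjusted p = 0.0663 to 0.18). The average change was -0.22 ± 0.04 (adjusted p = 0.000719).

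**Figure D3:**
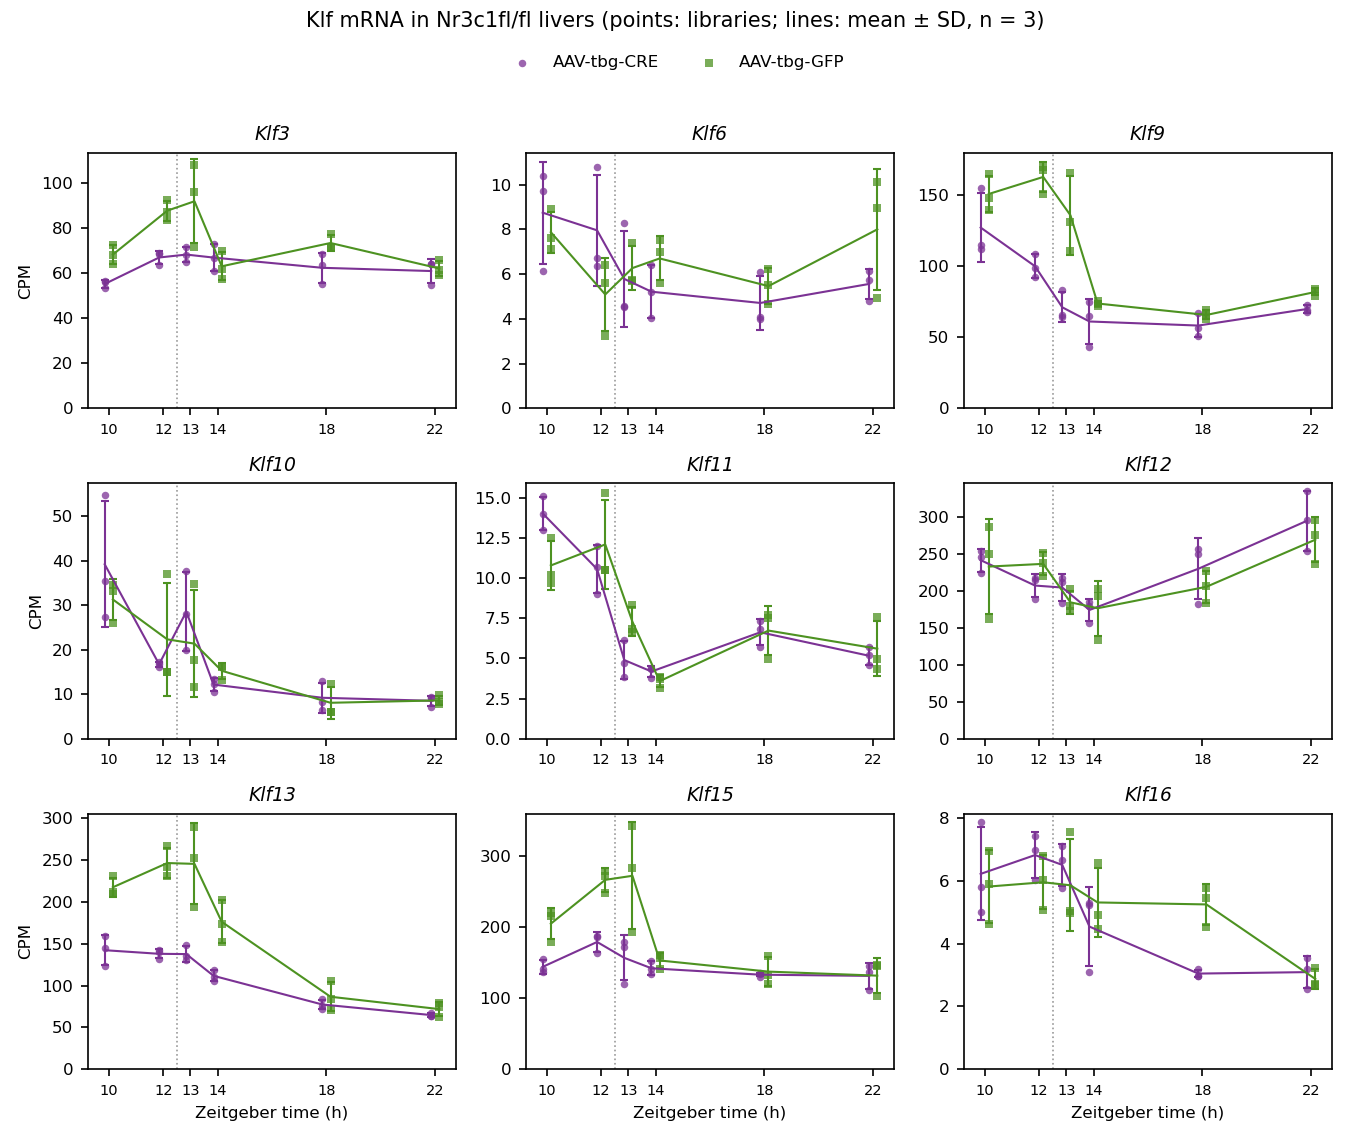
CPM of each member by Zeitgeber time in Nr3c1fl/fl livers with AAV-tbg-CRE (purple circles, left) or AAV-tbg-GFP (green squares, right), each point a library, lines through group means with SD bars (n = 3), and a dotted line between the unfed hours ZT10 and ZT12 and the fed hours. Klf13 of CRE livers lies below all GFP points from ZT10 to ZT14, and the groups meet at ZT18 and ZT22.

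By hour, 1 member was lower in CRE livers at ZT10 (Klf13, beside 0.471% of all genes lower and 0.694% called either way). The 4 members above were lower at ZT12 (2.25% and 3.75%) and at ZT13 (3.15% and 5.04%), and Klf13 was the 1 called at ZT14 (0.987% and 1.57%). None was called higher at these hours, beside 0.223%, 1.5%, 1.89% and 0.586% of all genes. At ZT10 all GFP libraries and CRE replicate 1 were rich in ribosomal RNA, so the Klf13 call there could not be rerun without them. The ZT12 count involves 2 of the libraries rich in ribosomal RNA. Without all 6 of those, and with 1 GFP library left at ZT12, which was assumed to vary like the other groups, Klf13 still passed (-0.81, adjusted p = 0.0298), while Klf9 was at -0.77 (adjusted p = 0.136), Klf15 at -0.47 (adjusted p = 0.745) and Klf3 at -0.32 (adjusted p = 0.718). With the ribosomal share as a covariate Klf15 and Klf3 did not pass there either (adjusted p = 0.28 and 0.39). A fit of the ZT13 groups alone, which has fewer libraries to estimate the spread, called 0 members, with Klf13 at -0.83 (adjusted p = 0.0883) and Klf9, Klf15 and Klf3 at adjusted p = 0.0769, 0.191 and 0.268.

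At ZT18, 0 members passed (0.102% of all genes, 0.0382% higher) with edgeR and with DESeq2, and 2 had an unadjusted p under 0.05, Klf3 and Klf16 (8.15% of all genes). Klf16 had 2.98, 2.97 and 3.18 CPM in CRE livers and 5.46, 4.52 and 5.76 CPM in GFP livers there, without overlap, a change of -0.79 ± 0.22 (adjusted p = 0.159). At ZT22, 0 members passed with either tool (0.146% of all genes, 0.0891% higher), and 0 had an unadjusted p under 0.05 (10.9% of all genes). Whether the CRE effect differed among the 6 hours was tested directly. With edgeR 0 members passed (0.687% of all genes), 6 had an unadjusted p under 0.05 (10.8% of all genes), and the smallest adjusted p was 0.0858 for Klf13. DESeq2 called 3, Klf9, Klf13 and Klf15 (adjusted p = 0.0342, 0.0054 and 0.0354). Without replicate 3 of GFP at ZT13, edgeR called 4 (Klf3, Klf9, Klf13 and Klf15, adjusted p = 0.0103 to 0.047), without replicate 1 of CRE at ZT14 it called Klf9 (adjusted p = 0.0313) and without replicate 2 of GFP at ZT18 Klf13 (adjusted p = 0.0306).

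The remaining members had wide or small differences. Klf6, Klf10, Klf11, Klf12 and Klf16 changed by -0.08 to 0.05 on average between CRE and GFP livers, with standard errors of 0.07 to 0.14, and none passed. Klf11 had 6.14, 4.71 and 3.84 CPM in CRE livers and 8.32, 6.86 and 6.66 CPM in GFP livers at ZT13, with no overlap and a change of -0.57 ± 0.20 that did not pass (adjusted p = 0.0972), but did without replicate 1 of CRE (-0.77, adjusted p = 0.0452). Klf10 spread widely, with 35.4, 27.3 and 54.9 CPM in CRE livers and 34.5, 33.3 and 26.1 CPM in GFP livers at ZT10.

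In Nr3c1fl/fl livers the hours up to ZT12 were unfed and the later ones fed, so time and food cannot be told apart there. In CRE livers 7 of 9 members changed over the 6 hours, all but Klf3 and Klf15, beside 41.5% of all genes, and in GFP livers 8 of 9 changed, all but Klf6, beside 46.9%. Klf15 stood at 144, 179, 156, 142, 132 and 131 CPM in CRE livers over ZT10, ZT12, ZT13, ZT14, ZT18 and ZT22 (adjusted p = 0.132, and 0.0478 without replicate 2 of CRE at ZT13), and at 205, 266, 272, 152, 137 and 131 CPM in GFP livers (adjusted p = 1.02e-06). The Klf6 call in CRE livers (adjusted p = 0.036) was lost without replicate 2 or 3 of ZT10, 2 of ZT12, 2 or 3 of ZT14, or 1 or 2 of ZT18 (adjusted p = 0.0547 to 0.128). From ZT12 to ZT13, the step at which food came, Klf11 fell in both virus groups. It had 6.14, 4.71 and 3.84 CPM at ZT13 and 12, 10.7 and 8.99 CPM at ZT12 in CRE livers (-1.11 ± 0.20, adjusted p = 0.000683), and 8.32, 6.86 and 6.66 CPM at ZT13 and 10.5, 10.5 and 15.3 CPM at ZT12 in GFP livers (-0.74 ± 0.20, adjusted p = 0.0347).

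Klf11 was the 1 member called for that step in GFP livers (1.04% of all genes lower, 1.91% higher, 2.95% either way), and the call was lost without replicate 1 or 3 of GFP at ZT12 or replicate 2 or 3 of GFP at ZT13 (adjusted p = 0.0521 to 0.245). It was also lost with the ribosomal share as a covariate (-0.85, adjusted p = 0.0833), without the 6 libraries rich in ribosomal RNA (-1.06, adjusted p = 0.11) and with the 2 groups fitted alone (-0.75, adjusted p = 0.168). In CRE livers 2 members were lower (3.61% lower, 5.77% higher, 9.38% either way), Klf11 and Klf9. Klf9 changed by -0.49 ± 0.15 (adjusted p = 0.034), a call lost without replicate 1 or 2 of CRE at ZT12 or replicate 2 or 3 of CRE at ZT13 (adjusted p = 0.0739 to 0.174) or without the libraries rich in ribosomal RNA (adjusted p = 0.0586). Klf10, with a change of 0.77 ± 0.34 that did not pass (adjusted p = 0.151), was called with the 2 groups fitted alone (0.78, adjusted p = 0.0417). Klf13 was at 138 and 138 CPM in CRE livers and 246 and 247 CPM in GFP livers at ZT13 and ZT12. The test of the difference between the steps in CRE and GFP livers called 0 members and 0% of all genes with edgeR, with 0 members at an unadjusted p under 0.05 (634 of all genes) and 0 members with DESeq2.

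GR peaks deposited as concordant, 5772 positions of 209 bases on mm10 with no height or score, were set beside the members' gene intervals. A peak lay within 25 kb for 6 of 9 members, beside 29.5% of 14638 tested genes with a position. The window takes in the whole gene interval, so long genes have more room for a peak. Klf12 spans 419711 bases and Klf13 52565, and the share of all genes is not matched for length. Klf15 had 8, Klf9 3, Klf6 2 and Klf3, Klf12 and Klf13 1 each, while Klf10, Klf11 and Klf16 had 0. The 4 members that were lower in CRE livers on average all had one, as did Klf6 and Klf12, whose averages did not pass. The Klf13 peak lay inside the gene at chr7:63896933-63897141, 41.9 kb downstream of its start site. The Klf15 peak nearest to the start site lay inside the gene at chr6:90463562-90463770, 1.1 kb downstream, with 3 more inside the gene and 4 beyond it. The Klf9 peaks lay outside the gene at -5.3, -6.1 and -15.2 kb from the start site, the Klf3 peak 2.9 kb downstream inside the gene, and the Klf6 peaks 0.3 kb downstream, inside the gene, and at -19.8 kb.

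**Figure D4:**
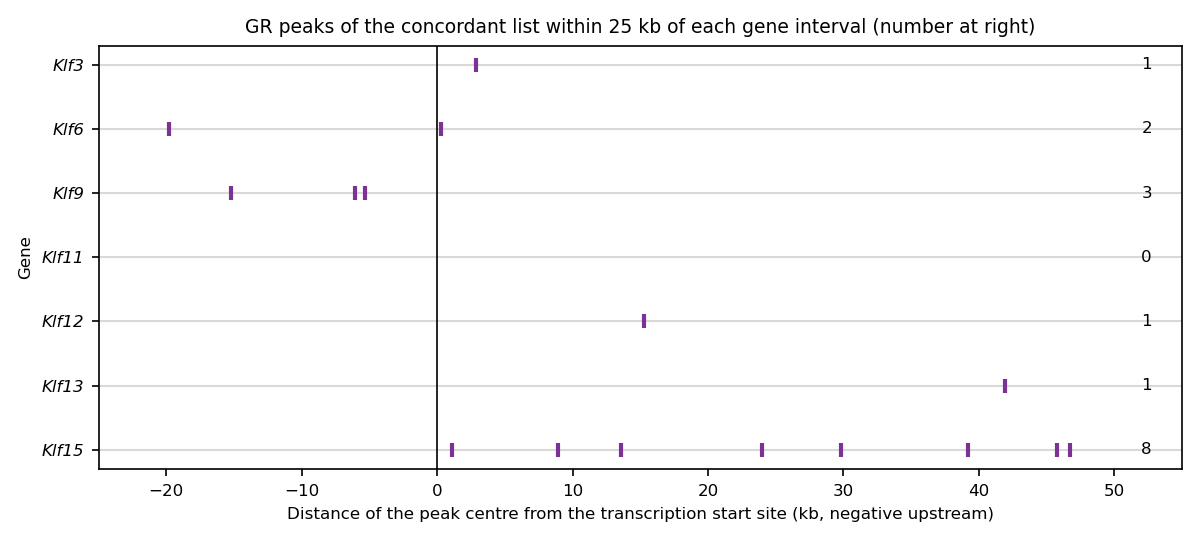
Distance in kb of each concordant GR peak centre from the start site in the RefSeq promoter table, for the 7 members listed there (negative upstream) and peaks within 25 kb of the gene interval. For Klf12 and Klf15 that start site lies inside the gene interval. Klf15 has 8 peaks, all downstream of its start, Klf9 has 3, all upstream, and Klf11 has 0.

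The larger peak lists separate the members less. The 16 concordant peaks near the members all stand at the same positions in the list against CRE chromatin, so the lists are not independent. Against input (23683 peaks), 8 of 9 members had a peak within 25 kb, all but Klf16, beside 63.4% of genes, and against chromatin of CRE livers (18543 peaks) all 9 had one, beside 72.0% of genes. Klf11 had 4 peaks against input and 1 against CRE chromatin. These counts rest on single positions with no replicate value.

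Other genes of the family and of its partners were counted in the same fits. Of 8 other Klf genes, 5 passed the filter in C57BL/6 livers and 1 was lower in fed livers on average, Klf1 of red cell precursors (-0.38 ± 0.11, adjusted p = 0.00986), with means of 3.49 CPM fed and 4.37 CPM unfed. Klf2, Klf4, Klf5 and Klf7 did not pass. Of 9 Sp genes, which code for the related Sp factors of GC boxes, 5 were tested and 3 were lower in fed livers, Sp1 (-0.30 ± 0.06), Sp3 (-0.34 ± 0.06) and Sp4 (-0.34 ± 0.12), with the largest adjusted p at 0.0271. Among 8 corepressor genes, Sin3a was lower in fed livers (-0.21 ± 0.05, adjusted p = 0.00136) and Sap18 (0.21 ± 0.07, adjusted p = 0.0176) and the histone deacetylase Hdac2 (0.20 ± 0.05, adjusted p = 0.00361) higher. The median changes of these 3 lists were 0.03, -0.30 and 0.08. Beside these counts, 17.9% of all 14744 tested genes were lower, 17.5% higher and 35.4% called either way. The counts of the other Klf genes and of the corepressors were thus near the share of all genes.

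Between CRE and GFP livers, 0 of 7 tested other Klf genes and 0 of 8 corepressor genes passed on average. The smallest p among them was 0.0683 for Klf2 (adjusted p = 0.234) and 0.0282 for Ctbp2 (adjusted p = 0.131). Ctbp2 was the 1 gene of both lists with an unadjusted p under 0.05, beside 26% of all genes. Of the Sp genes 2 of 5 were higher in CRE livers, Sp2 (0.19 ± 0.05, adjusted p = 0.0166) and Sp4 (0.25 ± 0.06, adjusted p = 0.00652). Beside these counts, 7.92% of all 15712 tested genes were higher, 6.64% lower and 14.6% called either way. With lists this short, 0 called genes cannot be told from that share.

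The genes whose group means ran most like a member's were ranked by the smaller Pearson r of log2 CPM over the 9 C57BL/6 groups and the 12 Nr3c1fl/fl groups, among 9580 genes with at least 5 CPM on average. These are descriptions over group means that share libraries, depth and time of day. Nearest to Klf13 was Per1, a core clock gene, at r = 0.97 and 0.96. Nearest to Klf9 were Chic2 (0.98 and 0.95), Dync1li1 (0.94 and 0.93) and Ralgapa2 (0.91 and 0.92). For Klf15 they included Tnfrsf1b (0.96 and 0.96) and Kcnk5 (0.97 and 0.93), and for Klf10 they were Jade1 (0.9 and 0.94), Wipf3 (0.89 and 0.9) and the splicing kinase Clk4 (0.92 and 0.89). Klf11 ran closest to Crebrf (0.93 and 0.95), Klf12 to Hsd3b7 (0.89 and 0.89), Klf3 to Rcc1 (0.8 and 0.91) and Klf6 to Atp6v1b2 (0.78 and 0.83). For Klf16, ranked among 9581 genes, it was Gm16861 (0.91 and 0.91).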

How the data were processed

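Liver RNA was sequenced from 27 C57BL/6 and 36 Nr3c1fl/fl libraries. The authors deposited raw read counts per RefSeq transcript row, and per the submitters' processing notes STAR, HOMER, DESeq2 and the builds mm10 and rn5 were involved, with no version or role stated. The sources used here do not say whether counting used strand. GR peaks were deposited as positions only. Rat hepatocyte samples were not analysed here. Of 40458 rows, 40219 were matched to a gene, and the row with the highest total stood for each gene. Rows with no gene held 0.308 to 2.237% of counts in C57BL/6 and 2.432 to 28.643% in Nr3c1fl/fl libraries and stayed out of totals. Of counts from 1 to 10, 72.4 to 82.3% and 74.2 to 82.7% were even.

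CPM values are counts over the TMM-scaled total of tested genes. Counts were fitted with edgeR 4.0.16 in R 4.3.3 (TMM scaling, filterByExpr, quasi-likelihood F-test), in 1 fit of group means per experiment, with p adjusted by Benjamini-Hochberg over all genes tested and a threshold of 0.05. All adjusted p-values are edgeR's unless DESeq2 (1.42.0) is named. The procedure was tested on simulated data with the same spread for all genes and with changes larger than most of those of the members. That test thus does not bear on the smaller changes. Alternatives were other scaling, no filter on low counts, the 2 groups alone, DESeq2, another transcript row, ribosomal share as a covariate, a replicate block and libraries left out. All 9 members are named, with at most 4 genes of each other list by smallest p and the genes of most similar pattern, of which 1 is not reported here. The members and lists were chosen with earlier results of these data known.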

Additional observations from a re-analysis of the deposited data

Results flagged for a closer look

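The food effect on Klf10 was called as differing among ZT13, ZT14, ZT18 and ZT22 (edgeR F-test over the hours, adjusted p = 0.023). It was 1 of 9 members called, near the 8.1% of all genes. The call was lost in 6 of 30 alternatives, at adjusted p up to 0.0574. Fed minus unfed changes were 0.39, -0.06, -0.30 and -0.83 in log2 at these hours. The direction held in 3 of 3 fed libraries against all unfed libraries at ZT22 alone. What lies behind the difference among hours was not tested.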

How the results depend on the processing

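Of 3753 values of members recomputed under an alternative, 3619 kept their side of the threshold, 111 were no longer past it and 23 were newly past it, and no called value changed sign. Of 66 calls of members, 43 held in every alternative run. For CRE against GFP at ZT12, 2 members were called with the ribosomal share as a covariate and 1 without the libraries over 20% ribosomal counts, against 4, and at ZT13 0 with the 2 groups alone, against 4. For the CRE effect across hours, 1 was called with the replicate block and 3 with DESeq2, against 0. For ZT13 against ZT12 in GFP livers, 0 were called with the 2 groups alone, the covariate or without those libraries, against 1, and in CRE livers 1 without those libraries, against 2. GC boxes stood in 3 promoters on the gene's own strand, against 5. With 1 library left out, counts were 1 to 3 for fed against unfed at ZT13 and 0 to 1 for the food effect across hours. For CRE against GFP they were 0 to 1 at ZT10 and ZT14, 2 to 4 at ZT12, 3 to 4 at ZT13 and 0 to 4 across hours, and for ZT13 against ZT12 0 to 1 in GFP and 1 to 2 in CRE livers. The cause was not tested. Same-numbered libraries of different groups correlated at -0.11 to 0.13 and -0.14 to 0.19 (median 0 in both experiments). No pairing by number thus showed over all genes together, while one limited to some genes cannot be seen this way. With the block, Klf6 fed against unfed at ZT18 had adjusted p = 0.0531, against 0.0452, and Klf13 for the CRE effect across hours 0.0243, against 0.0858. The share of all genes called moved by over 1.5 times under some settings: to 0.644% (2 groups alone) and 2.39% (DESeq2) against 1.1% fed against unfed at ZT13, to 3.67% (no filter) and 3% (without fed ZT14 replicate 1 and unfed ZT18 replicate 3) against 5.64% at ZT14, to 17.2% (no filter) against 26.4% at ZT18, and to 13.1% (no filter) and 11.7% (2 groups alone) against 20.2% at ZT22. It was 13.1% with DESeq2 against 8.1% for the food effect across hours, and 28.2% with no filter against 42.5% for time in unfed livers. For CRE against GFP it was 0.414% (covariate) and 1.28% (DESeq2) against 0.694% at ZT10, 1.46% (covariate) and 0.675% (without those libraries) against 3.75% at ZT12, 0.407% (2 groups alone) against 5.04% at ZT13, 1.03% (no filter) and 2.72% (DESeq2) against 1.57% at ZT14, 8.87% (without those libraries) against 14.6% on average, and 0.376% (without those libraries) and 2.59% (DESeq2) against 0.687% across hours. At ZT18 it was 0.407% (2 groups alone) and 0.528% (DESeq2) against 0.102%, and at ZT22 0% (2 groups alone), 0.0636% (without those libraries) and 0.675% (DESeq2) against 0.146%. For ZT13 against ZT12 in GFP livers it was 1.93% (no filter), 0% (2 groups alone), 0.751% (covariate), 0.185% (without those libraries) and 4.77% (DESeq2) against 2.95%, in CRE livers 6.13% (no filter) against 9.38%, and 0.0636% with DESeq2 against 0% for their difference. Without the libraries over 20% ribosomal counts, no GFP library is left at ZT10. The values on average and across hours in that setting thus cover ZT12 to ZT22, unlike those they stand against. Low counts limit Klf6, Klf11 and Klf16.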

Other observations

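Klf12 lay at 20.5 to 58.4 CPM in the 27 polyA libraries of C57BL/6 livers and at 134 to 335 CPM in the 36 libraries of Nr3c1fl/fl livers depleted of ribosomal RNA, without overlap, while Klf13 had medians of 137 and 134 CPM. Library kit, strain and virus cannot be told apart there, and the difference was not tested. Replicate 3 of GFP at ZT13 had the lowest Klf3, Klf9, Klf13 and Klf15 of its group (71.5, 111, 194 and 192 CPM) and the highest Klf10 (34.8 CPM).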
